A study of Mus musculus with 2 samples.

Results

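The primitive streak and early mesoderm genes described here are Eomes, Tbx6, Mixl1, Gsc, Evx1, Lhx1, Mesp1, Wnt3, Fgf8 and Cer1. They were taken by name from a list of markers, and each was read by the probe set that the platform annotation pairs with that 1 symbol. All 10 were found, each with 1 probe set, among 19938 named genes. They were measured in mouse embryonic stem (ES) cells on 2 Affymetrix Mouse Gene 1.0 ST arrays. The cells carried the reverse tetracycline transactivator at ROSA26 and a TRE-driven construct encoding CTCFL, a paralog of CTCF normally made in germ cells, fused to V5 and GFP. They were kept in medium with LIF on gelatin, and whether a single clone was used is not given in the sources used here. For the induced array, cells received doxycycline for 3 days and were then sorted for GFP, whereas cells of the non-induced array received no doxycycline and were not sorted. Doxycycline, CTCFL and sorting therefore cannot be told apart.

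With 1 array per group there is no replicate spread and no test of the conditions, and every value below describes these arrays. Signals are log2 values after robust multi-array averaging (RMA), the processing that corrects background, equalizes the arrays and combines the probes of a set. Differences are induced minus non-induced. The floor is the median of all gene values, 6.36, and the size is a difference of log2 1. Higher or lower by the size means a difference of at least that size, with the brighter array at the floor or above. The labels were checked with Ctcfl, at 9.44 in the induced and 5.99 in the non-induced array, while its paralog Ctcf was at 8.66 and 8.93. The cells were checked with 24 ES cell markers, which all reached the floor. Pou5f1, the central pluripotency factor, was at 11.98 and 11.96. Pairs of levels are given in the order induced, non-induced throughout.

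The primitive streak is the furrow through which epiblast cells leave their epithelium and become mesoderm and endoderm. Its formation depends on Nodal, Wnt and BMP signals. Wnt3 is the Wnt ligand needed to start it, and Eomes and Mixl1 are among the first factors made in it. Cells that leave the streak express Mesp1, and those that become paraxial mesoderm express Tbx6, while Fgf8 is needed for the cells to move away. ES cells kept in LIF resemble the epiblast before this step.

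None of the 10 genes differed by the size. 9 were above 0 and 1, Mixl1, was below 0, with a median difference of 0.15 and a range from -0.21 to 0.76. Of all genes 51.4% were above 0, with a median of 0.01. Tbx6 had the widest difference, followed by Gsc and Fgf8. These were also the 3 genes that reached the floor, and the other 7 stayed below it in both arrays. Tbx6 reached the floor in the induced array alone (6.60 and 5.83), so its place among the 3 depends on its difference. Of the 10697 genes at the floor, 0.477% were higher and 1.79% lower by the size, and 0 of the 3 genes were.

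The promoters of Tbx6 and Gsc, the genes with the widest differences upwards, are shown because the study concerns a protein that binds CTCF-like sites at promoters. They are the 250 bases before the annotated start, 5′ to 3′ on the strand of the gene, from RefSeq on GRCm38.p6. Capitals mark the letters AGGGGGC, or AGNNGGC in which N is any base, on either strand, both taken from the core of the CTCF site. The Tbx6 stretch is chr7:126781233-126781482 on the plus strand and the Gsc stretch is chr12:104473237-104473486 on the minus strand.
Tbx6: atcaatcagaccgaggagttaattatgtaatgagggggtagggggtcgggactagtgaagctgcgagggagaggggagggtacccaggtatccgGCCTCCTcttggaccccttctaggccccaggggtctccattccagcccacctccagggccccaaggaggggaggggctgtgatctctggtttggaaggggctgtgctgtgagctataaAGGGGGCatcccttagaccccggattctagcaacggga
Gsc: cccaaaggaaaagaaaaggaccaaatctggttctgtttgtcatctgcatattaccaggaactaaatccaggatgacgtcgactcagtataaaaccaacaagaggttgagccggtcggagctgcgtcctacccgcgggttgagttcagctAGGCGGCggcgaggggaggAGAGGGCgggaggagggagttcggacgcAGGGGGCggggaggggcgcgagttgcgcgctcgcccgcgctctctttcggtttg

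Both promoters held the exact letters AGGGGGC on the strand of the gene, at positions -38 to -32 for Tbx6 and -54 to -48 for Gsc, counted from the start. Of the 10 genes 8 had a promoter window in the RefSeq table, Mixl1 and Fgf8 being the others. AGGGGGC was also in the window of Lhx1, at -22 to -16, so 3 of 8 windows held it, against 10.6% of all 32851 windows of 300 bases. The 8 windows were richer in G and C, with a median of 56.5% against 52.7% for all windows. Whether this bears on the share that held the letters was not tested. The looser letters AGNNGGC, of which the exact letters are one case, were in 4 of 8 windows, those of Tbx6, Gsc, Lhx1 and Mesp1, against 59.8% of all. Lhx1 carried the exact letters and had the smallest difference of the 10 genes, 0.07. The match is of letters alone, and binding was not analysed here.

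Letters of factors that act on streak genes were searched in the same windows on both strands. GGTGTGA (T-box) was in the Mesp1 window, as was CTTTGAT (TCF/LEF), against 3.98% and 3.73% of all windows. AATNCACA (FOXH1) was in 0 of the 8 windows, against 3.60% of all.

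**Figure D1:**
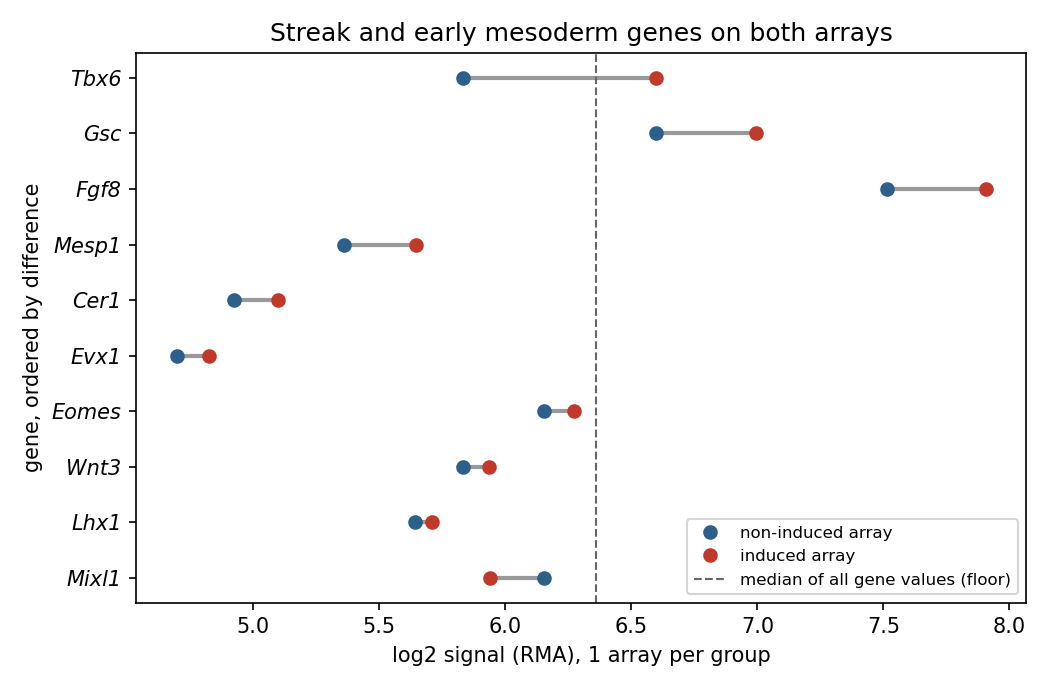
Log2 signal of each of the 10 genes (rows, ordered by difference), with a point for each array, a line between them and the floor (6.36) dashed. The line of Tbx6 crosses the floor, Gsc and Fgf8 lie above it in both arrays, and Mixl1 alone has its induced point to the left.

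Among the T-box factors, Tbx6 was at 6.60 with induction and 5.83 without. It was higher by 0.76 on the log2 scale, or 1.70-fold, and 97.4% of all genes had a lower difference. Tbx6 drives paraxial mesoderm at the expense of neural tissue, and it was below the floor in the non-induced and above it in the induced array. Eomes, the T-box factor that starts mesoderm and definitive endoderm, was at 6.27 and 6.15, a difference of 0.12. Eomes lay in the middle of the genes of its level, 48.5% of which had a lower difference.

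The homeobox factors went both ways. Gsc, a factor of the organizer at the anterior end of the streak, was at 6.99 and 6.60, higher by 0.39 or 1.31-fold. Mixl1, which acts in the forming mesendoderm, was at 5.94 and 6.15 and so lower with induction, by a difference of -0.21. Evx1, a factor of the posterior streak, was at 4.83 and 4.70, a difference of 0.13. Lhx1, a LIM homeobox factor of the anterior mesendoderm, was at 5.71 and 5.64, a difference of 0.07. Gsc alone of these reached the floor, so that the gene with the downward difference was also a dim one.

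Mesp1, the basic helix-loop-helix factor of the earliest cardiac and cranial mesoderm, was at 5.65 and 5.36, a difference of 0.29. It was below the floor in both arrays. Its paralog and chromosomal neighbour Mesp2, which acts in somite formation, was also below the floor and differed by a similar amount, 0.26 (5.84 and 5.58).

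Of the secreted factors, Fgf8 differed most. It was at 7.91 in the induced and 7.51 in the non-induced array, higher by 0.39 or 1.31-fold, and above the floor in both. Wnt3 was at 5.94 and 5.83, a difference of 0.11. Cer1, an antagonist of Nodal, BMP and Wnt ligands made by anterior endoderm, was at 5.10 and 4.92, a difference of 0.17. Both stayed below the floor.

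As there were no replicates, all genes were divided into 10 bands of equal size by mean level. The middle 95% of the differences in a band was taken as its range, which describes these arrays and is no measure of error. All 10 genes lay inside the range of their band. It was -0.74 to 0.82 for the band of Tbx6, Eomes and Mixl1, where 96.1% of genes had a lower difference than Tbx6 and 17.9% a lower one than Mixl1. For Fgf8 the range was -0.81 to 0.64, and 91.4% of the genes of its band had a lower difference. For Gsc it was -0.74 to 0.81, with 81.2% lower. Tbx6, Fgf8 and Gsc were thus towards the upper side of genes of their level, inside the 95% range.

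Genes of middling level were more often above 0 than others in these arrays. In the bands of Lhx1, Mesp1 and Wnt3 and of Eomes, Tbx6 and Mixl1, 64.9% and 65.1% of genes were above 0, with medians of 0.15 and 0.13. Lhx1, Wnt3 and Eomes, at 0.07 to 0.12, were therefore below the typical gene of their level although they were above 0. In the band of Fgf8 the median was -0.08 and 40.1% of genes were above 0, so that Fgf8 differed in the direction opposite to most genes of its level.

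**Figure D2:**
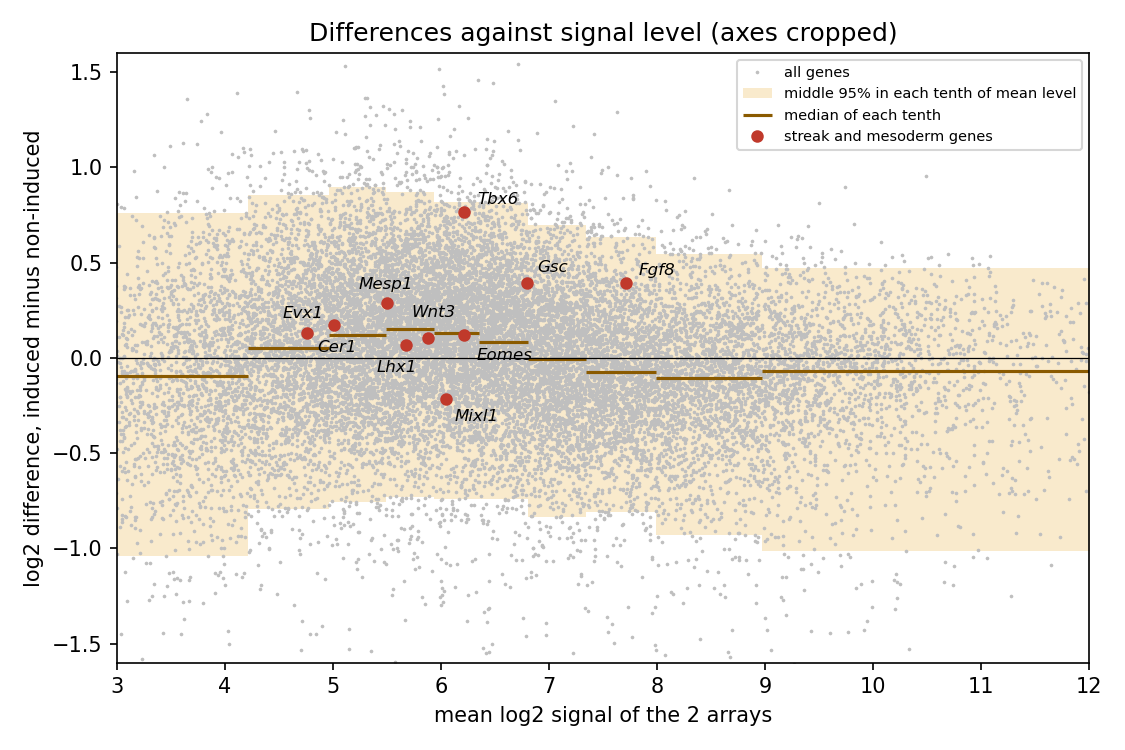
Mean log2 signal of each gene (horizontal) and its log2 difference, induced minus non-induced (vertical), with the 10 genes in red, the middle 95% of each band of level shaded and its median as a brown line. All red points lie inside the shading, Tbx6 (0.76) nearest to its upper edge (0.82).

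The direction of the small differences depended on how the arrays were scaled. The median gene was at 6.40 in the induced and 6.30 in the non-induced array, a shift of 0.10. With both arrays centred on their medians, 8 of the 10 genes were above 0, against 41.1% of all genes. After the trend of the difference on level was removed by lowess, 6 of 10 were above 0, against 50.3% of all genes, and their median was 0.07. Eomes was then at 0.00, Lhx1 at -0.07 and Wnt3 at -0.03. Tbx6 kept a difference of 0.64, Fgf8 had 0.47 and Gsc 0.35. Mixl1 was below 0 under each of the scalings, from -0.35 to -0.14. With a size of log2 0.58 in place of log2 1, 1 of the 3 genes that reached the floor (Tbx6) counted as higher, against 5.31% of all genes at the floor. Of the same 3 genes 0 counted as lower, against 8.45% of all genes at the floor.

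**Figure D3:**
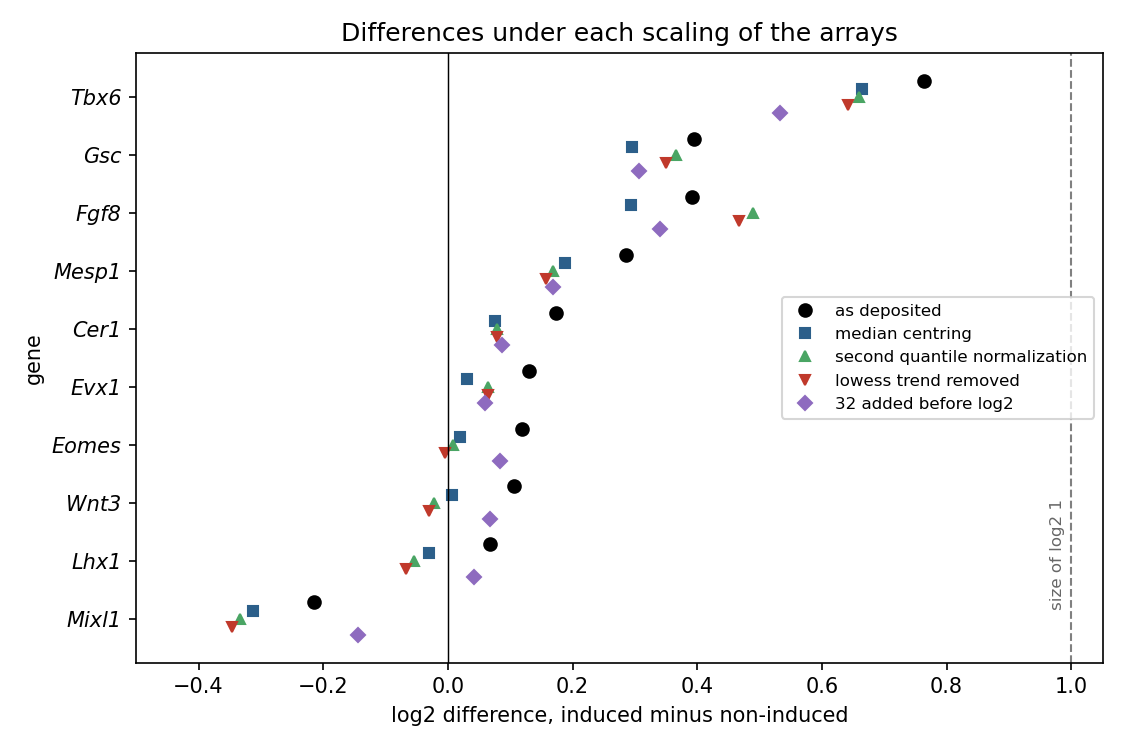
Log2 difference of each gene (rows), induced minus non-induced, for the deposited values and after other scalings (symbols). Tbx6, Gsc and Fgf8 are above 0 throughout, Mixl1 is below 0 throughout, the symbols of Eomes, Wnt3 and Lhx1 lie on both sides of 0, and no symbol reaches the dashed line at log2 1.

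Another measure of error came from 999 genes that several probe sets read. The differences of the top pair of probe sets of a gene were 0.19 apart at the median and 0.97 apart at the 95th percentile. For the 363 genes with both probe sets in the range of levels of the 10 genes, the median gap was 0.29, and 39.1% had differences of opposite sign. The difference of Tbx6 was wider than that median gap, those of Gsc and Fgf8 were somewhat wider, and the other 7 were narrower. The 95th percentile of the gap in these 363 genes was 0.985, and all 10 differences, that of Tbx6 included, were narrower than this. Each of the 10 genes has 1 probe set, so this spread could not be measured on them.

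Other genes of the streak and its derivatives were then examined, from a list of 46 of which 45 were measured. The T-box gene T (brachyury) was not analysed here. With a median of 0.17, 30 genes (66.7%) were above 0 and 15 below, against 51.4% of all genes above 0. After centring or lowess 27 were above 0, against 41.1% and 50.3% of all genes. Of the 45 genes 22 reached the floor. In the bands of mean level from 4.96 to 6.80, 60.4% to 65.1% of all genes were above 0. The 1 gene higher by the size was Nkx1-2, a homeobox gene of the posterior epiblast, at 7.48 and 6.30, a difference of 1.18. Wnt3a, a ligand of the later streak, was at 6.80 and 6.21 (0.59), and all 4 Wnt ligand genes of this list were above 0 under each scaling. Of these 4 only Wnt3a reached the floor. Pdgfra, a receptor of mesoderm cells, was at 5.95 and 5.82 (0.13), and Kdr, the VEGF receptor of blood and vessel precursors, at 5.22 and 5.28 (-0.06). Foxf1, a factor of lateral mesoderm, differed by -0.08, but by 0.08 as the mean of its probe sets. Meox1, a factor of somites, differed by 0.06, and Cdx1, a caudal factor, by -0.10.

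Of these 45 genes 4 lay outside the 95% range of their band, Nkx1-2 and Lmo2 above it and Foxa2 and Isl1 below it. Foxa2, a factor of the node and of endoderm, was at 5.83 and 6.68, a difference of -0.85. Lmo2, a cofactor in blood formation, was at 7.64 and 6.66 (0.98), and Isl1, a cardiac progenitor factor below the floor, at 5.05 and 6.05, both named after their values were seen.

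The pathways that induce the streak were examined from ligand to target, except that the Wnt list held no ligand genes. In the Nodal and activin pathway 9 of 22 genes were above 0 and 13 below, with a median of -0.16 that was -0.12 after lowess. Of these genes 20 reached the floor, and of all genes at the floor 46.6% were above 0. Nodal, the ligand, was at 7.95 and 8.15 (-0.19), its co-receptor gene Tdgf1 at 10.96 and 11.17 (-0.21) and the type I receptor gene Acvr1b at 7.74 and 7.47 (0.27). Smad2, which carries the signal, was at 7.83 and 8.12 (-0.30), and Lefty1, an antagonist and target, at 7.75 and 8.29 (-0.54). None differed by the size, and 4 of 5 signal transducers (3 after lowess) and both measured targets were below 0. The convertase gene Furin differed by 0.05.

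The Wnt pathway list was spread evenly about 0, with 25 of 48 genes above 0 and a median of 0.01. Wnt ligand genes were not counted with it. As deposited, Wnt3 (0.11) and the 4 ligand genes of the streak and mesoderm list were above 0. Of the receptor genes 4 of 12 were above 0, with Fzd1 at 6.22 and 6.62 (-0.40). Of the targets 6 of 7 were above 0, with the feedback gene Axin2 at 6.57 and 6.06 (0.51), but only 3 of the 7 reached the floor. The 1 target below 0, named after its value was seen, was the brightest, Ccnd1, at 9.52 and 9.91 (-0.385). After centring or lowess 4 of these 7 targets were above 0. Porcn, needed to secrete Wnt ligands, differed by -0.38, the transducer gene Dvl1 by 0.14 and the antagonist gene Dkk1 by 0.30, and none of the 48 genes differed by the size.

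In the BMP pathway 19 of 25 genes were above 0, with a median of 0.27 that was 0.29 after lowess. Of these 25 genes 17 reached the floor, and of all genes at the floor 46.6% were above 0. All 5 ligand genes and all 5 measured antagonist genes were above 0 under each scaling, but only 2 of these ligand and 3 of these antagonist genes reached the floor. Bmp2 was at 4.49 and 4.12 (0.37, below the floor) and Nog, which encodes noggin, at 6.69 and 6.08 (0.61). The 4 signal transducers were below 0 (3 after lowess), Smad1 at 6.92 and 7.41 (-0.49). Id1, an inhibitor of differentiation that BMP induces, was at 10.53 and 10.29 (0.24), and the receptor gene Bmpr1a differed by 0.09. None differed by the size, and 2 genes lay above the 95% range of their band. Named after their values were seen, these were the receptor gene Bmpr1b, at 4.04 and 3.22 (0.82, below the floor), and Twsg1, whose product binds BMP ligands, at 7.89 and 7.25 (0.64).

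In the FGF pathway 10 of 23 genes were above 0, with a median of -0.01. Fgf8 belongs to this pathway but was not counted with it. Of its listed targets 1 of 9 was above 0 under each scaling, Etv4 at 8.81 and 8.66 (0.15), while 8 were below, with a median of -0.27 that was -0.17 after lowess. The ligand gene Fgf3 was at 6.39 and 5.61 (0.79) and the receptor gene Fgfr1 at 7.66 and 7.70 (-0.04). These targets lay in the 4 brightest bands, in which 35.7% to 49.3% of all genes were above 0. None of the 23 genes differed by the size.

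Families of the 10 genes were examined as well. Of 13 other T-box genes 10 were above 0, with a median of 0.09, but 6 after centring and 7 after lowess. Only 4 of these 13 genes reached the floor. The share of all genes above 0 was 51.4%, 41.1% after centring and 50.3% after lowess. Tbx2, named after its value was seen, was above the 95% range of its band, at 7.39 and 6.53 (0.86). Of 5 other genes of the DAN family, to which Cer1 belongs, 4 were above 0 (3 after centring or lowess), with a median of 0.13, and Dand5, which blocks Nodal on one side of the node, differed by -0.02. None of either family differed by the size.

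**Figure D4:**
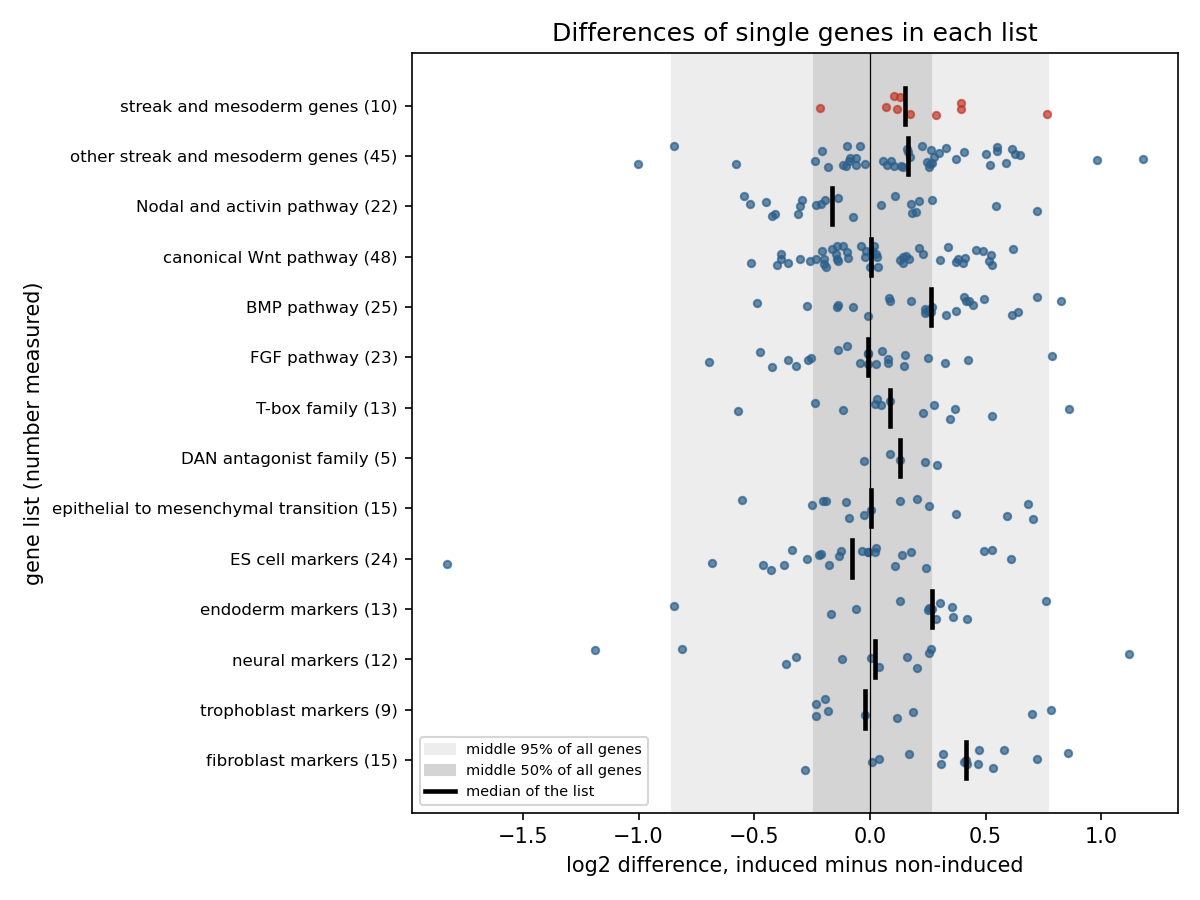
Log2 difference of each measured gene (points), induced minus non-induced, by gene list, with the median of each list (black bar), the middle 50% and 95% of all genes (shading) and points moved in height to be seen. The median of the 10 genes (0.15, red) lies inside the middle 50% of all genes, and the fibroblast list has the highest median (0.42).

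Markers of other cell types were set beside these values, since cells that have left the ES state may be present in such cultures and sorting was applied to the induced cells alone. In bulk RNA, fewer cells of a type and less RNA per cell cannot be told apart. For the counts below, the share of all genes above 0 was 51.4%, 41.1% after centring and 50.3% after lowess. Of the fibroblast genes 7 of 15 reached the floor and 14 were above 0 (12 after centring, 13 after lowess), from -0.28 to 0.85, with Col1a1 at 7.63 and 7.22 (0.42). Their linear signals summed to 1292 in the induced and 952 in the non-induced array. Of the endoderm genes 6 of 13 reached the floor and 10 were above 0 (9 after lowess, median 0.27 as deposited), with Sox17 at 6.31 and 5.89 (0.42), and summed to 1031 and 904. Of the neural genes 5 of 12 reached the floor and 7 were above 0 (5 after centring or lowess). Sox1 was at 8.31 and 8.05 (0.26), Stmn2 alone was lower by the size (-1.19), and the list summed to 1371 and 1413. Named after its value was seen, Pax6, a factor of neural progenitors, differed by 1.12, with both values below the floor. Of the trophoblast genes, which include Eomes, 4 of 9 reached the floor and 4 were above 0, with Cdx2 at 5.51 and 5.69 (-0.18), and they summed to 658 and 605. RMA signals have no 0, so none of these markers was at 0. The 10 streak and mesoderm genes summed to 829 and 683. The part of these markers in the differences of the 10 genes was not tested. ES cell markers were above 0 in 9 of 24 (12 after lowess), with a median of -0.08, and 1, Dppa3, was lower by the size (-1.83). Outside the 95% range of their band were 3 neural markers (Pax6, Neurod1 and Stmn2), 3 ES cell markers (Dppa3, Tfcp2l1 and Tcl1), 1 endoderm marker (Foxa2) and 1 fibroblast marker (Loxl1), named after their values were seen.

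The 10 genes lie on 8 chromosomes. The nearest measured genes on either side in the GRCm38.p6 annotation, an examination added after the values were seen, numbered 20, of which 9 were above 0 and 11 below. Their median difference was -0.03, and none differed by the size or lay outside the 95% range of its band. Next to Tbx6, Ypel3 differed by 0.40 and the phosphatase gene Ppp4c by -0.01. Next to Fgf8, Fbxw4, whose region holds enhancers of Fgf8, differed by 0.46 and the glycosidase gene Oga by -0.25. Next to Gsc, the serpin gene Serpina3n differed by 0.15 and the predicted gene Gm10000 by 0.12, both below the floor. Next to Eomes, Cmc1, a mitochondrial assembly factor gene, was at 8.41 and 9.21, the widest difference of a neighbour (-0.80). The difference of Tbx6 was larger than that of either of its neighbours, whereas that of Fgf8 was smaller than that of Fbxw4.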

How the data were processed

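RNA of 2 samples of mouse ES cells, 300 ng each, was hybridized to Affymetrix Mouse Gene 1.0 ST arrays, 1 induced and 1 non-induced. The deposited values are log2 signals per probe set, which the authors made by RMA, with its background correction and normalization. Neither a software version nor an array annotation is given in the sources used here. The scale was inferred from the range of values, 1.36 to 14.5. RMA compresses differences, above all of dim genes. Arrays give no counting error, and their number limits the precision.

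Of 35557 probe sets 21789 had 1 symbol in the platform annotation, 1621 several and 12147 none, and the last 2 kinds were left out. The 1-symbol sets gave 19938 genes with symbols updated through RefSeq (GRCm38.p6), for 21698 sets by gene identifier. Where several sets read 1 gene, the set of highest mean was used. The members and lists were chosen with earlier results of these data known. In each list the text names the first gene of each role, where it was measured, and all genes past the size. Promoters were those of the members with the 2 widest differences upwards and the widest downwards (Mixl1, not in the table used). The alternatives were median centring, a second quantile normalization, lowess (fraction 0.3), an offset of 32 on the linear scale, the mean of probe sets, a size of log2 0.58, no floor and a floor at the 75th percentile. Steps were tested on simulated data. Python 3.11.15, numpy 2.4.6, pandas 2.3.3, statsmodels 0.14.6 and matplotlib 3.10.9 were used.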

Additional observations from a re-analysis of the deposited data

How the results depend on the processing

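With 1 array per group no array could be left out, and no paired analysis was possible because each group holds 1 array. Of the 10 genes 7 kept their sign under all 5 other treatments of the values, but not every treatment could reverse a sign. Adding the same offset to both arrays leaves the brighter array the brighter. The mean of probe sets equals the deposited value, since each of these genes has 1 probe set. Only median centring, quantile normalization and lowess could therefore reverse a sign. Eomes was at -0.004 after lowess. Lhx1 was at -0.031 after median centring, -0.055 after quantile normalization and -0.067 after lowess. Wnt3 was at -0.023 after quantile normalization and -0.031 after lowess. The cause was not tested for these or the values that follow. At a size of log2 0.58, 1 of the 10 genes was higher (Tbx6), against 0 at log2 1, where only the 3 genes that reached the floor could be counted.

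Of the other streak and mesoderm genes 1 was higher by the size. This count was 2 after quantile normalization (Nkx1-2 and Lmo2), 0 with the offset, 0 with the floor at the 75th percentile and 4 of 22 at log2 0.58 (with Wnt3a and Nog). In that list 1 was lower without a floor (Isl1) and 1 at log2 0.58 (Foxa2). The genes of the other lists that follow were named after their values were seen. At log2 0.58, 5.31% of all genes at the floor were higher and 8.45% lower. The genes higher at that size numbered 1 of 20 at the floor in the Nodal (Cfc1), 3 of 17 in the BMP (Bmp7, Nog, Twsg1), 1 of 19 in the FGF (Fgf3) and 1 of 4 in the T-box list (Tbx2), 3 of 12 in the epithelial and mesenchymal list (Cldn6, Cldn7, Twist2), 1 of 24 among ES cell (Tcl1), 1 of 6 among endoderm (Hnf4a), 2 of 4 among trophoblast (Krt7, Esx1) and 2 of 7 among fibroblast markers (Col5a1, Loxl1). By the same size 1 of 19 FGF pathway genes (Spred1), 2 of 24 ES cell markers (Dppa3, Fbxo15) and 1 of 6 endoderm markers (Foxa2) were lower. For neural markers 1 was higher without a floor (Pax6) and 0 lower with the offset.

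The median changed sign after median centring for the Wnt pathway (-0.093), the T-box family (-0.010), the epithelial and mesenchymal list (-0.093) and the neural markers (-0.077). It did so after quantile normalization for the Wnt pathway (-0.021), ES cell (0.031), neural (-0.058) and trophoblast markers (0.007), and after lowess for the Wnt pathway (-0.037), ES cell (0.009) and neural markers (-0.070). The endoderm median was 0.159 after lowess. The medians of the other 7 of 14 lists, that of the 10 genes included, kept their sign and moved by at most 0.1. Median centring moves every gene by the same amount, 0.10, so no list could pass that limit by centring. The median of the 10 genes was 0.152 as deposited and 0.053 after centring.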

Other observations

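Cells that pass through the streak exchange epithelial for mesenchymal proteins, and a list of both was examined. All 6 epithelial genes were above 0 (5 after median centring), against 51.4% of all genes (41.1% after centring). Their median was 0.23, which was 0.33 after lowess. Cdh1, which encodes E-cadherin, was at 9.01 in the induced and 9.00 in the non-induced array (0.01). Of the 9 mesenchymal genes 6 reached the floor, and 2 were above 0 and 7 below, with a median of -0.10 (-0.17 after lowess). The 2 above 0, named after their values were seen, were Fn1 (0.37) and Twist2 (0.59). Cdh2, which encodes N-cadherin, was below the floor in both arrays, at 5.56 and 6.12 (-0.55). None of the 15 genes differed by log2 1 or more. Named after its value was seen, Cldn6, which encodes a claudin, was above the 95% range of its band, at 7.76 and 7.05 (0.70).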
